A study of Mus musculus with 28 samples.

Results

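Iron and heme handling was followed through 9 genes in C10 cells as these turned from Pre-B cells into macrophages. The genes were taken by symbol from the TPM table of all 12 RNA-seq libraries and are 9 of its 55450 genes: Tfrc, Steap3, Slc11a2, Slc11a1, Fth1, Ftl1, Slc40a1, Hmox1 and Blvrb. C10 is a clonal mouse Pre-B cell line derived from the HAFTL line, and all libraries carry the same transgene, C/EBPα fused to the hormone-binding part of the estrogen receptor, so that β-estradiol sends the factor into the nucleus. RNA was sequenced in 3 biological replicates at 0h (uninduced) and at 1h, 12h and 48h of treatment with β-estradiol (100 nM), IL-3 (10 nM) and CSF-1. The effects of the hormone, the cytokines and C/EBPα cannot be told apart, because no library had only some of them. Promoter Capture Hi-C (PCHi-C), which lists the DNA fragments that touch gene promoters, was read as 1 merged list per time point. The deposited TPM (a level per unit of transcript length, relative to all transcripts of a library) keep no record of depth. The paper refers to its supplement for sequencing depth, which was not used here.

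Cells take up iron bound to transferrin through the transferrin receptor (Tfrc), reduce it in endosomes (Steap3) and move it to the cytosol through a divalent metal transporter (Slc11a2). Ferritin, a shell of heavy (Fth1) and light (Ftl1) chains, stores iron, ferroportin (Slc40a1) exports it, and Slc11a1 (NRAMP1) moves metal ions across the membrane of phagosomes and late endosomes. Heme oxygenase 1 (Hmox1) splits heme into iron, carbon monoxide and biliverdin, and Blvrb is a biliverdin and flavin reductase. Macrophages recycle the iron of engulfed red blood cells, whereas dividing lymphoid precursors mainly import iron.

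Transcripts of Tfrc and of both ferritin chains carry iron responsive elements, hairpins that the iron regulatory proteins bind when iron is short. An element in the 5′ UTR blocks translation of ferritin, and elements in the 3′ UTR protect Tfrc mRNA from decay. The elements are shown because the ferritin and Tfrc transcripts moved in opposite directions. Whether the elements had a part in these changes was not tested. GENCODE M21 transcripts (GRCm38) of Fth1, Ftl1 and Tfrc were searched, and those of the other genes followed here were not. The elements therefore cannot be called particular to Fth1, Ftl1 and Tfrc. The pattern was a C 5 bases before a CAGTGN loop flanked by 5 paired bases. The search found 1 element in Fth1, 1 in Ftl1 and 4 in Tfrc. They are printed 5′ to 3′ with the bulged C and the loop in capitals.
Fth1, 5′ UTR, chr19:9982732-9982760, plus strand: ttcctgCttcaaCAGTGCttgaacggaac
Ftl1, 5′ UTR, chr7:45459779-45459807, minus strand: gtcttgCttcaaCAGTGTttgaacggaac
Tfrc, 3′ UTR, chr16:32631219-32631247, plus strand: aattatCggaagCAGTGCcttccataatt
Tfrc, 3′ UTR, chr16:32631598-32631626, plus strand: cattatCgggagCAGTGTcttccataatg
Tfrc, 3′ UTR, chr16:32631663-32631691, plus strand: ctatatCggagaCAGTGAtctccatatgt
Tfrc, 3′ UTR, chr16:32631710-32631738, plus strand: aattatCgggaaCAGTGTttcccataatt
RNA-seq reads transcript amounts, so these data hold no measure of whether a protein was bound to an element.

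Of the 9 genes, 8 passed the filter of a mean TPM of at least 0.1 that left 16415 genes to test, and Slc40a1 was at 0 in each of the 12 libraries. At 48h against 0h all 8 tested genes passed the threshold (adjusted p under 0.05, limma on log2(TPM + 0.1) with Benjamini-Hochberg adjustment over all tested genes). Hmox1, Slc11a1, Fth1, Ftl1 and Blvrb were higher and Tfrc, Slc11a2 and Steap3 were lower. Of all tested genes 15.9% were called higher and 27.2% lower in this comparison. In 7 of the 8, all but Blvrb, the 48h libraries did not overlap those of 0h (19.2% of all tested genes lay higher without overlap and 30.8% lower). At 12h, 5 were higher and 2 lower (22.3% and 7.82% of all tested genes), and at 1h 3 were higher and none lower (24.1% and 1.41%). At 1h, 3 of the 8 is therefore a share close to that of all genes. In bulk RNA, fewer cells of a type and less RNA per cell cannot be told apart.

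A ribosomal RNA locus held 70.3% to 82.9% of a library's TPM, and the TPM left for genes outside the 20 most abundant ran from 58340 to 131800. The median log2 fold change of all tested genes was not 0 but 0.59 at 1h, 0.34 at 12h and -0.18 at 48h against 0h, and after median-of-ratios scaling between libraries it was 0.021, 0.069 and 0.072. With that scaling 2 of the 8 genes were called higher and none lower at 1h, and 5 were called higher and 3 lower both at 12h and at 48h. The scaled shares of all tested genes called higher and lower were, in this order, 5.42% and 4.92% at 1h, 16% and 14.5% at 12h, then 24.5% and 22% at 48h. Scaled values are given below where they change a call. Replicate 3 had the lowest share of TPM at the ribosomal RNA locus at every time point, and at 48h it stood apart, with 75.7% against 82.7% and 82.9% in the others. The nearest library to replicate 3 of 1h by correlation was not a 1h library. The summed TPM of 12 Pre-B markers was 299.7 to 340.8 at 0h against 26.9 to 38.4 at 48h. That of 10 macrophage markers was 3.65 to 5.11 at 0h against 191 to 269 at 48h, with Mertk still at 0. Of 9 erythroid markers, the hemoglobin genes and Gata1 were at 0 in every library and the sum was at most 1.1. The sum of 8 neutrophil markers was at most 0.35 before 12h, 8.32 to 13.7 at 12h and 1.41 to 3.43 at 48h, with Mpo at 0 throughout. Its part in the results was not tested.

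**Figure D1:**
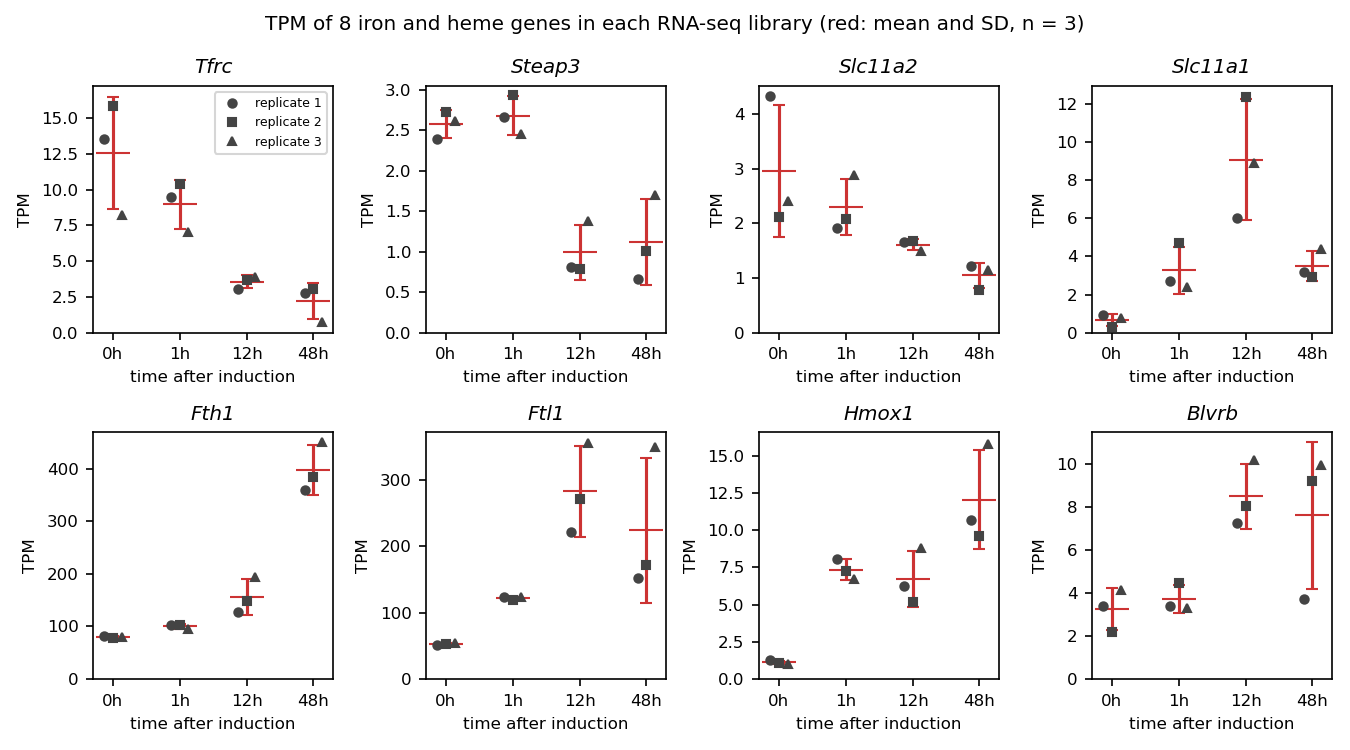
TPM of the 8 detected genes (y axis, linear from 0) in each library at 0h, 1h, 12h and 48h (x axis); symbols are replicates and red bars are the mean and SD of 3. Tfrc, Steap3 and Slc11a2 end below their 0h level and the other 5 above it, with replicate 1 of Blvrb at 48h (3.71 TPM) inside its 0h range.

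The 3 genes of iron import all ended lower. Tfrc (chromosome 16, 32608920 to 32632794, GRCm38), the receptor that takes up transferrin, was at 13.56, 15.87 and 8.22 TPM at 0h and at 9.47, 10.37 and 7.07 TPM at 1h. It was at 3.04, 3.68 and 3.92 TPM at 12h and at 2.78, 3.06 and 0.73 TPM at 48h. The 1h libraries overlapped those of 0h, and every library of 12h and 48h lay below all of 0h and 1h. The log2 fold change against 0h was -0.45 (SE 0.44, adjusted p = 0.483, limma) at 1h, -1.75 (adjusted p = 0.0115, limma) at 12h and -2.64 (adjusted p = 0.000472, limma) at 48h. The mean level at 48h was 5.73-fold below that at 0h. Replicate 3 of 48h gave the lowest value, and without it the 48h log2 fold change was -2.02 (adjusted p = 0.000223, limma). Neighbouring time points in the order of levels did not pass the test (adjusted p between 0.0556 and 0.483, limma), whereas points further apart did, except 48h against 1h after scaling (adjusted p = 0.0676, limma).

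Steap3 (chromosome 1, 120190757 to 120272705), the endosomal ferrireductase, was at 2.39, 2.73 and 2.62 TPM at 0h and 2.66, 2.93 and 2.45 TPM at 1h. It was at 0.81, 0.78 and 1.38 TPM at 12h and stood at 0.66, 1.01 and 1.70 TPM at 48h. The libraries of 1h and 12h did not overlap (log2 fold change -1.39, SE 0.31, adjusted p = 0.00795, limma). Against 0h it fell by 1.34 on the log2 scale at 12h (adjusted p = 0.00705, limma) and by 1.22 at 48h (adjusted p = 0.00714, limma). From 12h to 48h the value was 0.12 (adjusted p = 0.811, limma), but 0.80 (adjusted p = 0.0470, limma) after median-of-ratios scaling.

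Slc11a2 (chromosome 15, 100387898 to 100425072), which carries ferrous iron out of endosomes, was at 4.34, 2.12 and 2.42 TPM at 0h, at 1.92, 2.09 and 2.89 TPM at 1h, at 1.66, 1.67 and 1.49 TPM at 12h and at 1.22, 0.78 and 1.14 TPM at 48h. Its mean level was lower at each later time, and all libraries of 48h lay below all earlier ones. The log2 fold change at 48h was -1.37 (SE 0.29, adjusted p = 0.00212, limma) and -0.99 (adjusted p = 0.0172, limma) after scaling. At 12h it was -0.78 (adjusted p = 0.0611, limma), which became -1.09 (adjusted p = 0.0167, limma) after scaling and -0.97 (adjusted p = 0.0438, limma) without replicate 2 of 0h. Replicate 1 of 0h held the highest level, and without it the 12h value was -0.47 (adjusted p = 0.207, limma). No 2 neighbouring time points differed beyond the test's threshold.

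Slc11a1, the paralogue of Slc11a2 that acts in the phagosomes of macrophages, moved the other way. It lies on chromosome 1 (74375195 to 74386062). Its TPM was 0.94, 0.30 and 0.76 at 0h and 2.73, 4.68 and 2.41 at 1h. It reached 6.01, 12.35 and 8.90 TPM at 12h and was 3.18, 2.90 and 4.40 TPM at 48h. Each induced library lay above all of 0h, and the 12h libraries lay above those of every other time point. The log2 fold change against 0h was 2.19 (SE 0.39, adjusted p = 0.00285, limma) at 1h, 3.63 (adjusted p = 4.36e-05, limma) at 12h and then 2.32 (adjusted p = 0.00051, limma) at 48h. The change from 12h to 48h, -1.32 (adjusted p = 0.0218, limma), was -0.58 (adjusted p = 0.317, limma) after scaling. Leaving out 1 library also ended that call for replicates 2 and 3 of 12h and replicates 1 and 2 of 48h, with adjusted p up to 0.091 (limma). The ratio of Slc11a1 to Slc11a2 within a library, which does not depend on scaling, was 0.224 ± 0.087 (SD, n = 3) at 0h, 1.5 ± 0.71 at 1h, 5.66 ± 1.91 at 12h and then 3.40 ± 0.69 at 48h. No library of 1h, 12h or 48h overlapped 0h in this ratio (two-sided exact permutation test, p = 0.1 each, the smallest that 3 against 3 allow, and 0.109 adjusted over 12 ratio comparisons).

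**Figure D2:**
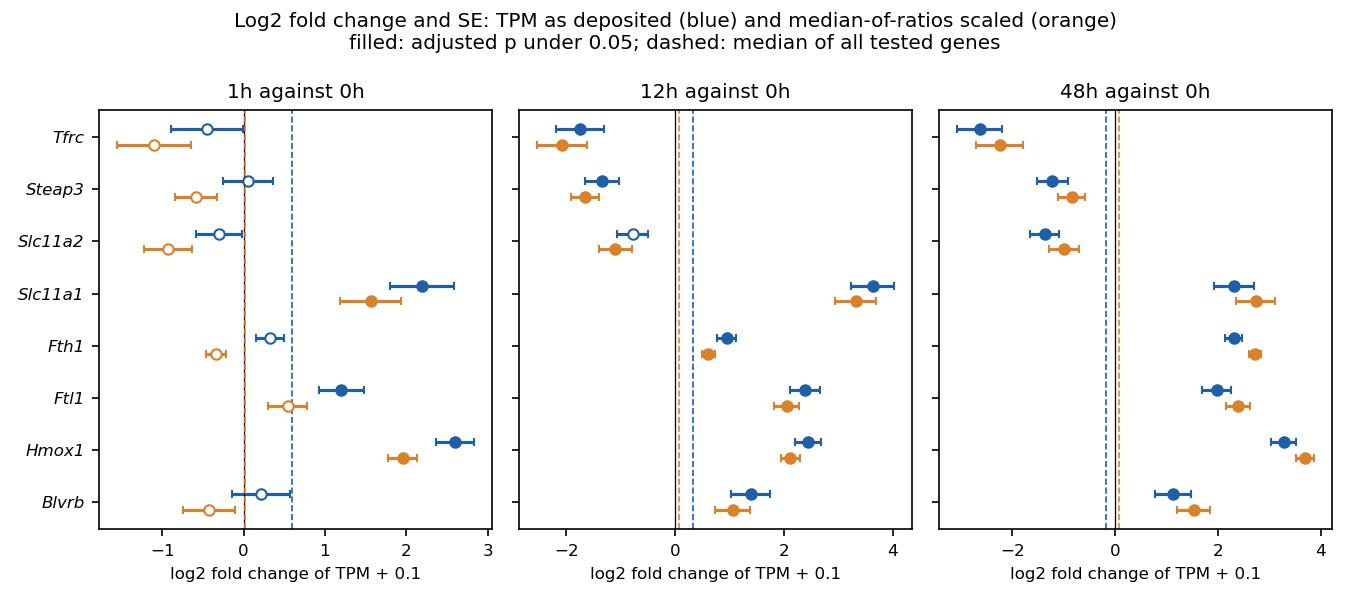
Log2 fold change against 0h (x axis, with SE) of each gene at 1h, 12h and 48h for TPM as deposited (blue) and after median-of-ratios scaling (orange); filled points have an adjusted p under 0.05 and dashed lines mark the median of all tested genes. At 48h the 5 increases and 3 decreases hold in both, whereas at 1h the Ftl1 point is filled in blue (1.20) and open in orange (0.54).

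Both ferritin chains, which build the iron store, rose, but at different times. Fth1 (chromosome 19, 9980598 to 9985098), the chain with ferroxidase activity, was at 81.60, 77.30 and 80.77 TPM at 0h and 101.92, 103.30 and 95.36 TPM at 1h. It was at 126.70, 148.88 and 194.02 TPM at 12h and at 358.55, 383.74 and 449.97 TPM at 48h. The libraries of the 4 time points did not overlap at any step. Against 0h the log2 fold change was 0.33 (SE 0.17, adjusted p = 0.183, limma) at 1h, 0.95 (adjusted p = 0.00168, limma) at 12h and then 2.31 (adjusted p = 8.3e-07, limma) at 48h. The 1h value was -0.34 (adjusted p = 0.111, limma) after scaling, so no direction can be given for it. From 12h to 48h Fth1 rose by 1.36 on the log2 scale (adjusted p = 0.000128, limma), a comparison in which 4.1% of all tested genes were called higher and 31.7% lower (10.5% and 11.9% after scaling).

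Ftl1 (chromosome 7, 45457944 to 45459884), the light chain that helps form the mineral core, was at 51.01, 53.56 and 54.18 TPM at 0h and already at 122.88, 119.41 and 123.45 TPM at 1h. It was at 220.69, 270.85 and 355.95 TPM at 12h and at 151.79, 171.44 and 349.81 TPM at 48h. The steps from 0h to 1h and from 1h to 12h had no overlap, and the 48h libraries overlapped those of 12h through replicate 3 alone. Relative to 0h the log2 fold change was 1.20 (SE 0.28, adjusted p = 0.0104, limma) at 1h, 2.39 (adjusted p = 7.75e-05, limma) at 12h and then 1.98 (adjusted p = 0.000129, limma) at 48h. After scaling the 1h value was 0.54 (adjusted p = 0.182, limma). From 12h to 48h it was -0.41 (adjusted p = 0.287, limma), 0.34 (adjusted p = 0.357, limma) after scaling and -0.78 (adjusted p = 0.00756, limma) without replicate 3 of 48h.

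Within a library the ratio of Fth1 to Ftl1 TPM was 1.60, 1.44 and 1.49 at 0h. It was 0.829, 0.865 and 0.773 at 1h, then 0.574, 0.550 and 0.545 at 12h, and 2.36, 2.24 and 1.29 at 48h. Heavy chain transcripts were thus the more abundant at 0h and 48h and light chain transcripts at 1h and 12h, in all 3 libraries each. The difference in mean log2 ratio from 0h was -0.88 at 1h and -1.44 at 12h, both without overlap (two-sided exact permutation test, p = 0.1 each, adjusted 0.109). At 48h it was higher by 0.33, with overlap (exact p = 0.4), and by 0.60 without replicate number 3. The annotated copies of the ferritin genes could share reads with them. Ftl1-ps1 reached at most 2.05 TPM, Fth-ps2 at most 0.38 and Ftl1-ps2 at most 0.2 TPM, and the other copies with these symbols or the Fthl17 symbols were at 0.32 TPM or less. How the TPM estimate divided shared reads was not tested.

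The ratio of Tfrc to Fth1 TPM, import against storage, was 0.158 ± 0.052 (SD, n = 3) at 0h, 0.0892 ± 0.014 at 1h, 0.0230 ± 0.0024 at 12h and lastly 0.00578 ± 0.0036 at 48h. Its mean log2 value differed from that of 0h by -0.78 after 1h, by -2.73 after 12h and by -5.03 after 48h. No induced library overlapped 0h (two-sided exact permutation test, p = 0.1 each, adjusted 0.109).

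**Figure D3:**
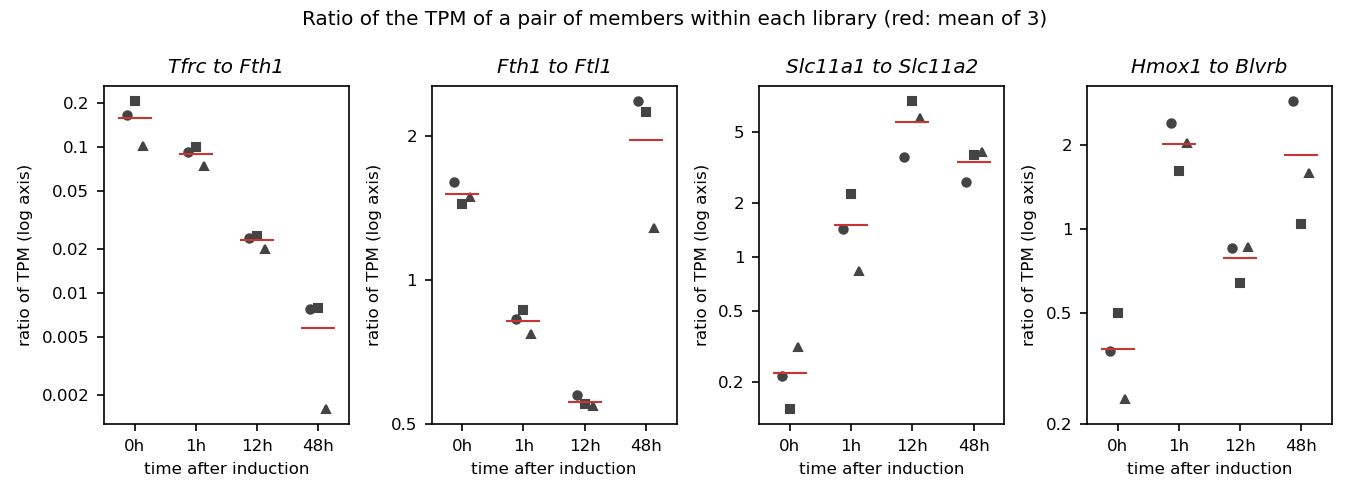
Ratio of the TPM of a pair of genes within each library (y axis, logarithmic) by time after induction (x axis); symbols are replicates and red bars are means of 3. Tfrc to Fth1 runs from 0.158 down to 0.00578, and Fth1 to Ftl1 passes through 0.556 at 12h before it ends at 1.96.

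Ferroportin, Slc40a1 (chromosome 1, 45908068 to 45926523), the exporter through which macrophages return iron to plasma, was listed at 0 in every library, so no fold change was computed. Cd163, the receptor for haptoglobin bound to hemoglobin and a second marker of iron-recycling macrophages, was also at 0 in every library. Hmox1, which is on the same list of 5 markers, was higher from 1h on, as given below. The 5 markers summed to 1.07 to 1.25 TPM at 0h and 9.73 to 16.02 TPM at 48h. Nearly all of this sum was Hmox1, with 1.02 to 1.25 TPM at 0h and 9.63 to 15.82 TPM at 48h. The rise of the sum is therefore that of Hmox1 and not of the markers as a set. Vcam1 was at 0 at 1h, 12h and 48h, and Spic, the factor of red pulp macrophages, averaged 0.013 TPM before induction, 0.36 at 1h, 0.09 at 12h and then 0.10 at 48h. Sequencing depth was not used here, so these zeros do not show that the transcripts were absent. Of the other 9 genes of the export and hepcidin list, which includes hepcidin itself, only Hfe and Cp had a mean TPM of at least 0.1, and neither passed the test at any time point.

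Both heme breakdown genes among the 9, Hmox1 and Blvrb, were called higher at 48h. Hmox1 (chromosome 8, 75093621 to 75100589), which opens the heme ring, was at 1.25, 1.11 and 1.02 TPM at 0h and at 8.08, 7.24 and 6.69 TPM at 1h. It was at 6.25, 5.15 and 8.80 TPM at 12h and at 10.69, 9.63 and 15.82 TPM at 48h. All induced libraries lay above 0h, the 1h and 12h libraries overlapped, and all 48h libraries lay above both. The log2 fold change against 0h was 2.60 (SE 0.24, adjusted p = 3.97e-05, limma) at 1h, 2.45 (adjusted p = 1.93e-05, limma) at 12h and then 3.28 (adjusted p = 6.28e-07, limma) at 48h. The mean level was 6.51-fold higher at 1h and 10.7-fold higher at 48h. The late step from 12h to 48h, 0.83 (adjusted p = 0.0169, limma), did not pass without replicate 3 of 48h (0.62, adjusted p = 0.0551, limma) or without replicate 2 of 12h (0.66, adjusted p = 0.0676, limma), and was 1.57 (adjusted p = 8.54e-05, limma) after scaling.

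Blvrb (chromosome 7, 27447978 to 27466144), which acts on biliverdin and flavins downstream, was called higher from 12h on. It was at 3.42, 2.21 and 4.15 TPM at 0h, 3.38, 4.47 and 3.29 TPM at 1h, 7.28, 8.05 and 10.21 TPM at 12h and 3.71, 9.22 and 9.95 TPM at 48h. Only at 12h were all libraries above 0h. The log2 fold change was 0.21 (SE 0.36, adjusted p = 0.683, limma) at 1h, 1.39 (adjusted p = 0.0124, limma) at 12h and then 1.12 (adjusted p = 0.0232, limma) at 48h, with 1.53 (adjusted p = 0.00205, limma) at 48h after scaling. The 48h call was lost without replicate 2 of 0h (adjusted p = 0.0976, limma), without replicate 2 of 48h (0.0939) or without replicate 3 of 48h (0.0913), and in a fit to the 6 libraries compared (adjusted p = 0.116, limma). The 12h call was lost without replicate 2 of 0h (adjusted p = 0.0547, limma) or replicate 3 of 12h (0.0515). The ratio of Hmox1 to Blvrb TPM was 0.371 ± 0.13 (SD, n = 3) at 0h, 2.02 ± 0.39 at 1h, 0.787 ± 0.13 at 12h and then 1.84 ± 0.94 at 48h, with no overlap with 0h at any later time (two-sided exact permutation test, p = 0.1 each, adjusted 0.109).

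In the steps between induced time points, 4 of the 8 genes were called higher and 1 lower at 12h against 1h, where 6.98% of all tested genes were higher and 15% lower (4 and 1, 11.3% and 8.77% after scaling). At 48h against 1h, 4 were higher and 3 lower (8.16% and 44.4% of all tested genes), but after scaling 5 were higher and none lower (19.8% in each direction). At 48h against 12h, 2 were higher and 1 lower (4.1% and 31.7% of all tested genes), and 3 and none after scaling (10.5% and 11.9%). Fth1 was called higher in all 3 of these steps with both scalings, but its 12h against 1h call (0.62, adjusted p = 0.0236, limma) was lost without any 1 of 5 libraries, all but replicate 1 of 12h among the 6 compared (adjusted p = 0.0531 to 0.06, limma), without the mean-variance trend (0.0526) and in a fit to those 6 libraries (0.0587). Calls of Slc11a1 and Blvrb at 12h against 1h were lost without any 1 of 4 and of 6 libraries, with adjusted p up to 0.096 and 0.109 (limma). Of the increases at 48h against 1h, Blvrb (adjusted p = 0.0495, limma) passed in only 8 of 22 alternatives. Ftl1 (adjusted p = 0.0352, limma) passed in 14, Hmox1 (adjusted p = 0.0300, limma) in 19 and Fth1 in all 22. At 48h against 1h, scaling moved Steap3 from -1.27 to -0.26 (adjusted p = 0.464, limma), Slc11a2 from -1.07 to -0.061 (adjusted p = 0.902, limma) and Slc11a1 from 0.13 to 1.17 (adjusted p = 0.028, limma).

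By the root mean square difference of log2 profiles over the 12 libraries, each taken relative to its own 0h mean, the genes most like Fth1 were Jun (0.193), H2-D1 (0.209) and Ehd4 (0.264). Those most like Ftl1 were Abca7 (0.224), Qsox1 (0.228) and Cebpb (0.272). Hmox1 was nearest to Alcam (0.305), Abcb1a (0.33) and Arid5b (0.337), Slc11a1 to Gk (0.401), Dgkg (0.532) and Arhgap31 (0.537), and Blvrb to Rp2 (0.321), Os9 (0.332) and Gabarap (0.345). Of the genes that fell, Tfrc was nearest to Mtap (0.463), the B cell factor Ebf1 (0.486) and Slc6a9 (0.493), Steap3 to Zfas1 (0.254), Tle3 (0.293) and Col27a1 (0.294), and Slc11a2 to Tspan3 (0.285), Strbp (0.3) and Ppp3cc (0.31). These distances describe the shape of a time course and are in log2 units.

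The pathways around the 9 genes were read from 10 lists that together hold 94 genes, of which 75 were tested. At 48h, 13 of the 75 were called higher and 25 lower, with a median log2 fold change of -0.28 beside -0.18 for all tested genes. After scaling, 20 were higher and 20 lower. Without the 9 members, 67 were tested, with 8 higher and 22 lower (median -0.37), against 15 and 17 (median 0.024) after scaling. These counts and those of single lists below stand beside 15.9% of all tested genes called higher and 27.2% lower at 48h, or 24.5% and 22% after scaling.

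Heme synthesis is a path of mitochondrial and cytosolic enzymes. Of its 12 tested genes, 5 were lower and none higher at 48h (median -1.18), and 4 were lower after scaling, where the shares of all tested genes called lower were 27.2% and 22%. Alad, the porphobilinogen synthase, was at 4.28 ± 0.89 TPM (SD, n = 3) at 0h and at 0.433 ± 0.16 at 48h (log2 fold change -3.06, SE 0.25, adjusted p = 1.73e-06, limma). Cpox, coproporphyrinogen oxidase, was at 2.58 ± 0.71 TPM at 0h and 0.39 ± 0.079 at 48h (-2.43, adjusted p = 7.15e-06, limma). Tmem14c, a porphyrin carrier of the inner mitochondrial membrane, was lower too (-1.38, adjusted p = 0.000831, limma). Alas1, the first enzyme of the path outside erythroid cells, was not among the 5 (0.37, adjusted p = 0.459, limma), and neither was Fech, which inserts the iron (0.32, adjusted p = 0.360, limma). Both were named after their values were seen.

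Of the list of mitochondrial iron and iron-sulfur cluster assembly, 13 of 19 tested genes were lower and 1 higher at 48h (median -1.12), and 10 lower and 2 higher after scaling. Hspa9, the mitochondrial chaperone of cluster transfer, averaged 28.9 ± 5.06 TPM at 0h and 6.22 ± 0.99 by 48h (SD, n = 3; log2 fold change -2.20, adjusted p = 2.91e-06, limma). Ciapin1 and Glrx5, which act in cytosolic and mitochondrial cluster assembly, had log2 fold changes of -1.90 (adjusted p = 0.00106, limma) and -1.86 (adjusted p = 0.000342, limma). Fdxr, the reductase of ferredoxin, fell by 1.73 (adjusted p = 0.000679, limma). The gene that rose was Slc25a37 (mitoferrin 1), which imports iron into mitochondria (1.04, adjusted p = 0.000159, limma) and was named after its value was seen. At 12h none of the 19 was lower and 2 were higher, where 7.82% of all tested genes were lower and 22.3% higher. After scaling 4 were lower and 2 higher, beside 14.5% and 16%.

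**Figure D4:**
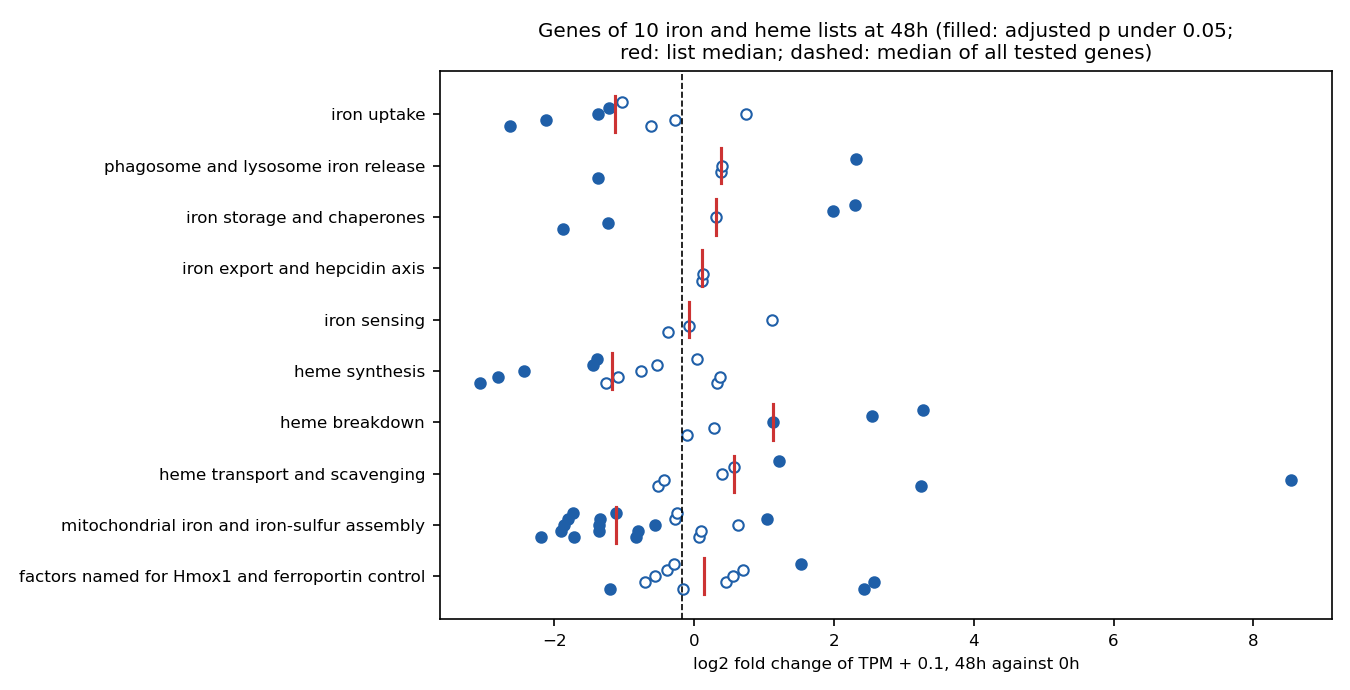
Log2 fold change at 48h against 0h (x axis) of each tested gene of 10 lists (rows); filled points have an adjusted p under 0.05, red bars are list medians and the dashed line is the median of all tested genes (-0.18). Heme synthesis (-1.18) and iron-sulfur assembly (-1.12) lie left of the line and heme breakdown (1.12) right of it.

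Of the 8 tested iron uptake genes, 4 were lower and none higher at 48h (median -1.13), beside 27.2% and 15.9% of all tested genes: Tfrc, Steap3, Slc11a2 and Slc39a8, a zinc, manganese and iron importer that averaged under 1 TPM (-2.12, adjusted p = 0.000131, limma). In the storage list, the chaperones Pcbp1 and Pcbp2, which hand iron to ferritin, fell while ferritin rose. Pcbp1 went from 30.3 ± 3.20 to 8.34 ± 2.44 TPM (SD, n = 3; log2 fold change -1.88, adjusted p = 2.19e-05, limma) and Pcbp2 from 72.1 ± 6.58 to 30.7 ± 1.72 TPM (-1.23, adjusted p = 4.63e-05, limma). Ncoa4, the receptor for the autophagy of ferritin, was not called (0.32, adjusted p = 0.343, limma) and was 0.72 (adjusted p = 0.0151, limma) after scaling. None of the 3 iron sensing genes was called at 48h. The iron regulatory proteins Aco1 and Ireb2 had log2 fold changes of -0.067 (adjusted p = 0.846, limma) and -0.37 (adjusted p = 0.196, limma), and Fbxl5, which removes Ireb2 when iron is plentiful, 1.11 (adjusted p = 0.0677, limma) and 1.52 (adjusted p = 0.00772, limma) after scaling.

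Of 5 heme breakdown genes, 3 were higher at 48h and none lower, namely Hmox1, Blvrb and Por, the reductase that gives heme oxygenase its electrons. Por averaged 6.57 ± 1.31 TPM before induction, 16.9 ± 1.48 at 1h, 67.9 ± 7.95 at 12h and by 48h 38.6 ± 5.71 (SD, n = 3; log2 fold change at 48h 2.54, adjusted p = 5.61e-07, limma). Hmox2, the constitutive heme oxygenase, was not called (0.28, adjusted p = 0.342, limma) and was 0.69 (adjusted p = 0.00419, limma) after scaling. In heme transport and scavenging 3 of 7 genes were higher and none lower, beside 15.9% and 27.2% of all tested genes. Hp, haptoglobin, which binds free hemoglobin, was listed at 0 in all 0h libraries and averaged 0.53 ± 0.29 TPM at 1h, 45.6 ± 8.71 at 12h and then 38.0 ± 10.1 at 48h (SD, n = 3). Lrp1, a receptor for heme bound to hemopexin, rose from 0.497 ± 0.34 to 5.07 ± 0.88 TPM at 48h (log2 fold change 3.24, adjusted p = 2.71e-05, limma). Abcc1, an exporter of glutathione conjugates, peaked at 8.51 ± 1.02 TPM at 12h and had a log2 fold change of 1.21 at 48h (adjusted p = 0.00152, limma).

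Among 12 tested genes of factors named for the control of Hmox1 and ferroportin, 3 were called higher and 1 lower at 48h, against 5 and none after scaling. Of all tested genes, 15.9% were higher and 27.2% lower, or 24.5% and 22% after scaling, and 3 or 5 of 12 are read against those shares. Nfe2l2, which encodes NRF2, the activator of antioxidant genes, was at 2.77 ± 0.41 TPM before induction, 15.2 ± 2.46 at 1h, 11.9 ± 0.38 at 12h and then 16.98 ± 2.90 at 48h (SD, n = 3; log2 fold change at 48h 2.57, adjusted p = 6.11e-07, limma). Bach1, the heme-binding repressor of Hmox1, rose too, from 1.53 ± 0.29 to 4.63 ± 1.15 TPM at 48h (1.53, adjusted p = 0.000564, limma). Cebpb rose by 2.43 (adjusted p = 6.58e-05, limma). The gene that was lower was Cebpa (-1.20, adjusted p = 0.0173, limma, and -0.80, adjusted p = 0.0705, limma, after scaling). The paper reports expression of the rat transgene and none of the mouse gene at these time points. The fall is therefore not read as one of the mouse gene.

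RefSeq promoter windows (GRCm38.p6, 250 bases before to 50 after each start) were found for 6 of the 9 genes, in 12 windows. None was found for Hmox1, Slc11a2 and Slc40a1, so these promoters were not searched. The core of the antioxidant response element, TGACNNNGC, was in none of the 12 on either strand and in 12.4% of all 32851 windows. The C/EBP motif TTGCNNAA was, among the 12, in a window of Fth1 and a window of Steap3, and it was in 10.8% of all windows. Some genes have several windows, so a count of genes cannot be set beside that share. Fth1 was called higher and Steap3 lower at 48h against 0h, and a link of matches to changes was not tested. The 250 bases before the main Fth1 start are shown because Fth1 rose and the window holds 2 matches, with first bases 129 and 58 before the start, printed 5′ to 3′ with the matches in capitals (the latter is on the opposite strand).
Fth1, chr19:9982396-9982645, GRCm38.p6, plus strand: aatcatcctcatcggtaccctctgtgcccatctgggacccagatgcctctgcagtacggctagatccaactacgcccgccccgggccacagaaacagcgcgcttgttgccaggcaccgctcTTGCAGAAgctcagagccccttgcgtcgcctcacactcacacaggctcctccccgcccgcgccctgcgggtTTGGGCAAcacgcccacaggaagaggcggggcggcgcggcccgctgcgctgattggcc
A match is a description of letters and no measure of binding.

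PCHi-C gave a different view of the same promoters. A bait fragment that held a start site was listed for 8 of the 9 genes and none for Steap3. Together the baits had 147 listed contacts at 0h, 112 at 1h, 117 at 12h and then 148 at 48h, and the median over 23122 genes with a bait was 5 at each time point. The replicates were merged before the lists were made, so these counts carry no replicate error and no test. The spans of fragments named below were chosen with these same lists in view. They count only fragments listed at some time point. Of the 147 contacts at 0h, 55.1% were listed again at 1h, 55.8% at 12h and then 63.9% at 48h, and 87.8%, 84.4% and 88.4% when a fragment within 10 kb of the same bait counted. These shares were not computed over all contacts, so they cannot be called particular to these genes. Changes in count at 1h and 12h were not compared with those of all genes either. Against 0h, the paper's own test of differential interactions found far fewer of them at 1h than at 12h or 48h.

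The Tfrc bait (chromosome 16, 32601296 to 32608953) had 26 contacts at 0h, 9 at 1h and 13 at 12h and 48h, and 4.66% of genes with a bait had 13 or more contacts fewer at 48h than at 0h. Many of the fragments no longer listed lay far upstream. Of 14 fragments between 521.2 and 303.5 kb upstream, 11 were listed at 0h, 2 at 1h, 1 at 12h and then 4 at 48h. A fragment beyond this span, 541.2 kb upstream, was listed at 12h only. Of 14 fragments between 105.3 and 67.2 kb upstream, all were listed at 0h, 7 at 1h, 10 at 12h and then 8 at 48h. The listed count was lower at 1h, when the Tfrc level did not pass the test against 0h. The fall in count has no replicate error, and the order of count and level was not tested.

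The Slc11a1 bait (chromosome 1, 74374359 to 74380624) had 26 contacts at 0h, 26 at 1h, 22 at 12h and then 23 at 48h, of which 11 were listed at all 4 time points, while its level was 13.6-fold that of 0h at 12h. The Slc11a2 bait had no contact before 48h and 1 at that time, and the bait also holds a start site of Gm5475. Both ferritin baits had fewer contacts at 48h than at 0h, Fth1 with 20, 16, 22 and 16 and Ftl1 with 14, 5, 8 and 7 over the 4 time points, where 19.3% and 11.5% of genes with a bait had a decrease at least as large from 0h to 48h. For Fth1 (bait on chromosome 19, 9977043 to 9983295) the listed fragments differed between times. Of 7 fragments between 46.1 and 21.6 kb upstream, 1 was listed at 0h, 1 at 1h, 7 at 12h and then 5 at 48h.

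The Hmox1 bait (chromosome 8, 75092137 to 75100119) had 20 contacts at 0h, 32 at 1h, 29 at 12h and then 32 at 48h, and 4.73% of genes with a bait had 12 or more contacts more at 48h than at 0h. Of 6 fragments between 44.2 and 24.5 kb upstream, in and beside Tom1, none was listed at 0h, 5 at 1h, 3 at 12h and then 6 at 48h. Contacts with the fragments that hold start sites of Hmgxb4, Tom1, Mcm5 and Rasd2 were listed at all 4 time points. The Blvrb bait, which also holds a start site of Sptbn4, had 41, 23, 21 and 39. Without pairs listed only from the bait at the other end, it had 31, 22, 15 and 37.

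The Slc40a1 bait (chromosome 1, 45924504 to 45928090) had no contact at 0h, 1 at 1h, 2 at 12h and then 17 at 48h, although its transcript was listed at 0 throughout. At least 17 more contacts at 48h than at 0h were listed for 2.45% of the 23122 genes with a bait, and of 3474 genes with no contact at 0h, 7 had at least 17 at 48h. At 48h, 14 of the 17 lay close together, with 3 gaps, on chromosome 1 from 45796816 to 45842833, between 127.4 and 90.2 kb from the bait and beyond the 3′ end of Slc40a1, and overlapped the gene Wdr75. The fragment 99.5 kb away was listed at 1h, 12h and 48h.

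**Figure D5:**
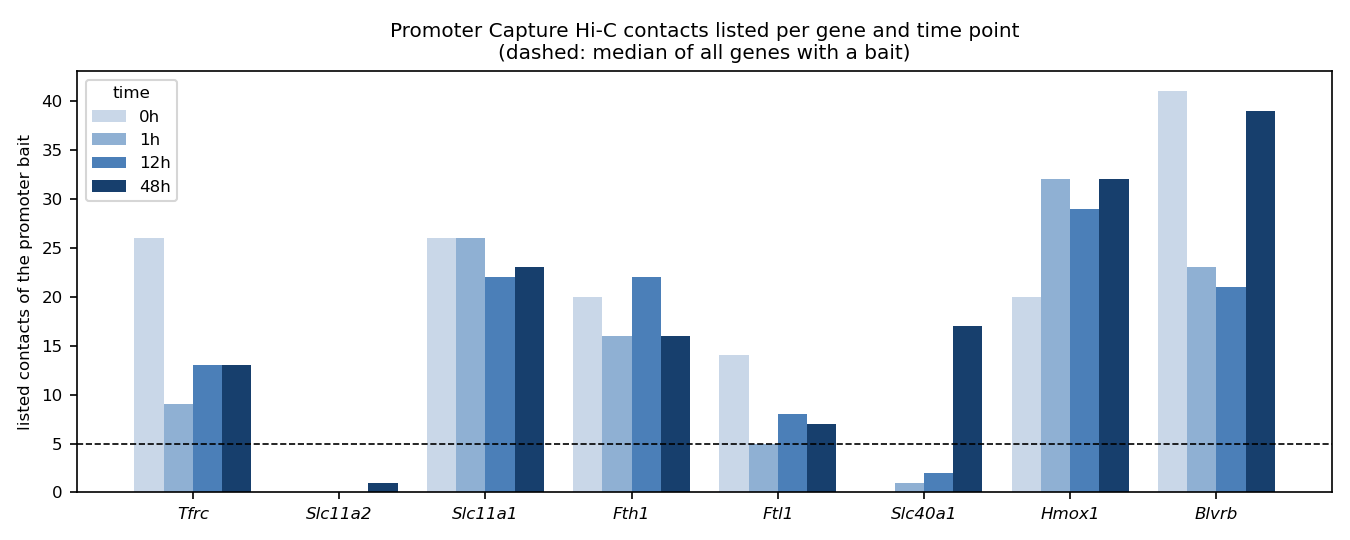
Number of contacts listed for the promoter bait of each gene (y axis, from 0) at 0h, 1h, 12h and 48h (bars from light to dark), 1 merged list per time point; the dashed line is the median of 5 over all genes with a bait. Tfrc has its highest bar at 0h (26), Hmox1 goes from 20 to 32, and Slc40a1 is low until 48h (17).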

How the data were processed

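RNA-seq libraries had been made from rRNA-depleted total RNA. Per the labels and the study's methods, the authors merged technical replicates, trimmed reads with Trim Galore 0.6.2, aligned them to mm10 with HISAT2 2.1.0 and deposited TPM, for which the submitters' processing notes name RSEM. The PCHi-C replicates were merged by the authors, who called interactions with CHiCAGO and deposited a score per interaction for 0h. The numbers in the other PCHi-C lists have no stated unit and were not used, nor was Hi-C.

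TPM were tested as log2(TPM + 0.1) with limma 3.58.1 in R 4.3.3 (1 model of 12 libraries, mean-variance trend, 6 contrasts), which was first tested on simulated data. There, at 48h against 0h, 23% of the log2 changes of 1 and 81% of those of 2 were recovered, with 6 false calls among 16415 genes. A gene that was not called may therefore still have changed. A fold change of log2(TPM + 0.1) understates that of genes with low TPM. Ratios were compared by exact permutation tests in Python 3.11.15 with scipy 1.17.1. A contact was counted for the bait that holds a start site in GENCODE M21, at either end of a listed pair. The genes, lists, tests and alternatives were chosen with earlier results of these data known. Beside the 9 genes, the text names from each list up to 4 other genes called at 48h with a mean TPM of at least 1. It also names annotated copies of the genes and the 3 genes most like each in profile. List genes named outside this rule include Alas1, Fech, Slc25a37, Slc39a8, Ncoa4, Aco1, Ireb2, Fbxl5, Hmox2, Hfe and Cp. A gene that this rule would also name is not reported here. Alternatives varied pseudocount, filter, scaling, trend, libraries, replicate block and threshold. No comparison of protein sequences was made. Columns that name no sample of this series numbered 0.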

Additional observations from a re-analysis of the deposited data

How the results depend on the processing

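The counts of called genes against 0h stayed within 1.5 times of the reported count under all alternatives but 1. With a log2 fold change beyond 2 also required, 3 genes were called at 12h and 4 at 48h. For 12h against 1h the count was 5, 3 without the trend, 0 beyond a log2 fold change of 2, and 2 to 6 when 1 library was left out. For 48h against 1h it was 7, 4 when TPM were rescaled without the 20 most abundant genes, 4 beyond a log2 fold change of 1, 1 beyond 2, and 4 to 7 with 1 library left out. For 48h against 12h it was 3, 0 beyond 2, and 1 to 3 with 1 library left out. Where an arm kept 2 libraries, the spread came from all time points.

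Sign changes were found only in values that did not pass the threshold. Under median-of-ratios scaling, quantile normalization and rescaling without the 20 most abundant genes, the 1h log2 fold change against 0h was -0.58, -0.54 and -0.42 for Steap3, -0.34, -0.15 and -0.17 for Fth1, and -0.43, -0.38 and -0.26 for Blvrb. In the same order, Hmox1 at 12h against 1h was 0.17, 0.12 and 0.12, and at 48h against 12h Ftl1 was 0.34, 0.14 and 0.15, Blvrb 0.47, 0.35 and 0.28, and Slc11a2 0.10 and 0.13 under the first pair. With 1 library left out, Steap3 ranged from -0.013 to 0.11 and Blvrb from -0.034 to 0.41 at 1h, Hmox1 from -0.36 to 0.020 at 12h against 1h, Slc11a1 from -0.056 to 0.41 at 48h against 1h, and at 48h against 12h Steap3 from -0.20 to 0.42 and Blvrb from -0.52 to 0.18. The cause was not tested. Of 1056 single-gene values under alternatives, 941 kept direction and side of the threshold, 69 no longer passed, 17 newly passed and 29 changed sign.

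The labels do not say whether replicate numbers pair the libraries, and the values do not settle it. Same-numbered deviations correlated with r between -0.012 and 0.257, over 0.1 in 7 of 18 pairs. Of the 18, 11 matched their own number best. Replicate 3 did so in all 6 comparisons, with r between 0.0698 and 0.257. With the replicate block, Tfrc at 12h against 1h passed (-1.30, adjusted p = 0.0276, limma) and no other call changed. The 12 ratio differences kept their direction when 0.1 was added to both TPM or a replicate number was left out, although 3 libraries against 3 cannot pass. With a score of at least 10, 39 of the 147 contacts at 0h remained. With a match within 10 kb, 129 were also listed at 1h and 124 at 12h.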
